A study of Aedes albopictus with 6 samples.

Results

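Small RNA tags that begin at the same base of a nuclear scaffold and stop at different bases were examined in the Asian tiger mosquito, Aedes albopictus. A member was a listed nuclear tag whose sequence name and start matched those of at least 1 other listed tag with another end. The rule used positions only. It found 2154 tags in 945 groups, out of 22304 listed nuclear tags and 22773 listed tags in all. Whole bodies of 2-day-old adults were sequenced, 3 libraries from virgin females and 3 from males, and the deposited table gives 1 count column per sex. No strain, genotype or treatment is given in the labels. With 1 value per sex there is no replicate check and no p-value, and a difference is one between these columns. Brackets give 95% intervals, which for counts, their ratios and their shares cover counting error only, since no molecular identifiers are named in the labels and PCR copies may be counted. Intervals of shares of tags or groups take these as independent, although many overlap, and are likely too narrow.

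The tags are of the size of PIWI-interacting RNAs (piRNAs), small RNAs that guide PIWI proteins to transposon, virus and some messenger RNAs. The 5′ end of a piRNA is set by a cut in its precursor, by a PIWI protein or by an endonuclease. The 3′ end is set by another cut or by trimming towards the edge of the PIWI protein, and it is then methylated, so copies with one 5′ end often differ in length. In mosquitoes piRNAs are made in gonads and also in other tissues. The start of a tag is its 5′ end on the forward strand and its 3′ end on the reverse strand. The strand and the sequence of the tags were not used here, so a shared start cannot be read as a shared 5′ end, and tags of both strands may stand in one group. For this reason the groups with one end are set beside those with one start.

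The list holds only tags at least 2-fold apart between the sexes. A length variant closer than that is not in the list, so each group shows what is left of a set of variants and not the whole of it. The totals behind the deposited TPM values were 2677063 counts in females and 2060047 in males. TPM is here the count scaled to that total, with no length term. A tag's direction is the sex with the higher TPM. No count of 1 occurs in the table, so a listed 0 can stand for 0 or for 1, and no fold is given against it.

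Sharing an end was about as common as sharing a start. There were 1063 groups of 2373 nuclear tags with one end, 10.6% of the nuclear tags, against 9.66% with one start. Both coordinates were shared by 592 tags, which were 27.5% of those with a shared start and 24.9% of those with a shared end. The start groups lay on 108 scaffolds and the end groups on 110. On the mitochondrial sequence, which the rule leaves out, 233 of 469 listed tags (49.7%) shared a start.

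Most groups were small and spanned few bases. Of the start groups, 776 held 2 tags, 107 held 3, 43 held 4 and 13 held 5. The few larger ones held 6, 7, 8 or 10 tags. The longest and the shortest member differed by 1 nt in 374 groups, by 2 nt in 232 and by 3 nt in 142. The median group had 42 counts over both sexes, 191 groups had fewer than 20 and 210 had 100 or more. The 10 groups with most counts held 29.2% of the female and 36.4% of the male counts of all members, so sums over members lean on them. Overlapping tags placed the 945 groups at 748 loci, and 97 loci with several groups held 294 of them.

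**Figure D1:**
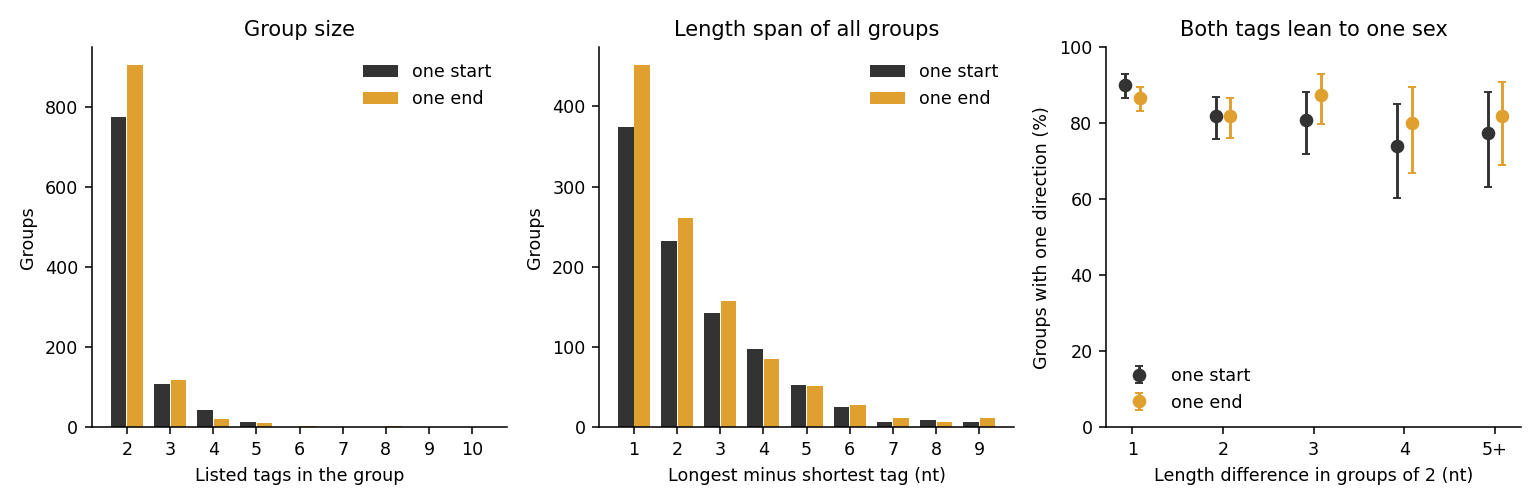
Left and middle, number of groups by number of listed tags and by length span in nt, for nuclear tags with one start (dark) and one end (yellow). Right, percentage of groups of 2 whose tags lean to the same sex, by length difference, with exact 95% intervals that take groups as independent. Groups of 2 that differ by 1 nt are the most numerous of both kinds, and 90.1% of the start groups with that difference have one direction.

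Tags that shared a start were more often male-higher than the rest of the list. Of the members, 1157 were higher in males and 997 in females, a male-higher share of 53.7% (51.6 to 55.8). The share over all listed tags was 31.7%, and over the 18369 nuclear tags that shared neither coordinate it was 26.1% (25.5 to 26.8). Of the latter, the 3338 that overlapped another listed tag were at 39.2% (37.6 to 40.9), so part of the gap went with overlap alone. Tags that shared an end were at 51.7% (49.6 to 53.7), and members that shared a start but no end at 46.8% (44.3 to 49.3). In sum the members had 69379 male and 48727 female counts, 1.85-fold (1.83 to 1.87) higher per total in males, whereas the tags that shared neither were at a male over female ratio of 0.73 (0.72 to 0.73). The direction of the member sum depended on the scaling, since its ratio was 1.39 with TMM factors and 0.82 with RLE factors, against 0.54 and 0.32 for the tags that shared neither. Both methods take most tags as unchanged, which a list of tags at least 2-fold apart does not meet. These factors thus cannot settle the direction of the sum. The male-higher members were no longer the majority under some settings. Their share was 47.3% with 1 group per locus, 49.3% in groups that span 1 nt and 45.0% without regions of 100 or more tags. The share of the other tags under these settings is not given here. The 31.7% over the whole list is thus not a matched value for them.

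Members were also more abundant, and abundance moved with direction. The median sum of counts was 15 for members and 8 for tags that shared neither coordinate. Of the 12912 nuclear tags with 6 to 9 counts, 5.65% shared a start, and of the 488 with 100 or more, 35.2% did. Within each range of counts the male-higher share of members was nevertheless the higher one. With 6 to 9 counts it was 41.4% (37.8 to 45.1) against 20.2% (19.5 to 21.0) for tags that shared neither, and with 10 to 19 counts 53.5% (49.1 to 57.8) against 29.2% (27.8 to 30.7). With 20 to 49 counts it was 60.4% (55.9 to 64.7) against 41.6% (39.5 to 43.7). With 50 to 99 counts it was 66.5% (60.0 to 72.6) against 55.5% (51.2 to 59.8). The intervals overlapped at 100 or more counts, with 70.3% (62.9 to 77.1) against 60.5% (53.4 to 67.3).

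Fewer members than other tags were listed in females alone, and more in males alone. Counts in both sexes were listed for 1050 members (48.7%). By direction, the female-higher members were 46.3% of all members, against 68.3% of all listed tags. In females alone 626 members (29.1%) were listed, against 55.7% of all listed tags, and in males alone 478 (22.2%), against 17%. These shares were not compared within ranges of counts, although members were the more abundant tags. For members with counts in both, the female-higher tags had a median fold of 3.66 and the male-higher ones of 4.91.

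The shortest and the longest members leaned most to males. At 24 nt 76.1% of 163 members were male-higher and at 25 nt 64.1% of 251, whereas at 27 nt 45.0% of 451 were. From 28 to 30 nt the share lay between 47.5% and 50%, and at 33 nt 22 of 26 members were male-higher. Tags that shared neither coordinate were also least often male-higher at 27 nt, with 21.9%, against 35.0% at 24 nt and 60% at 33 nt. The longest tags shared a start most often. Of nuclear tags at 33 nt 39.4% were members, whereas from 24 to 29 nt the share lay between 7.53% and 11.4%.

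**Figure D2:**
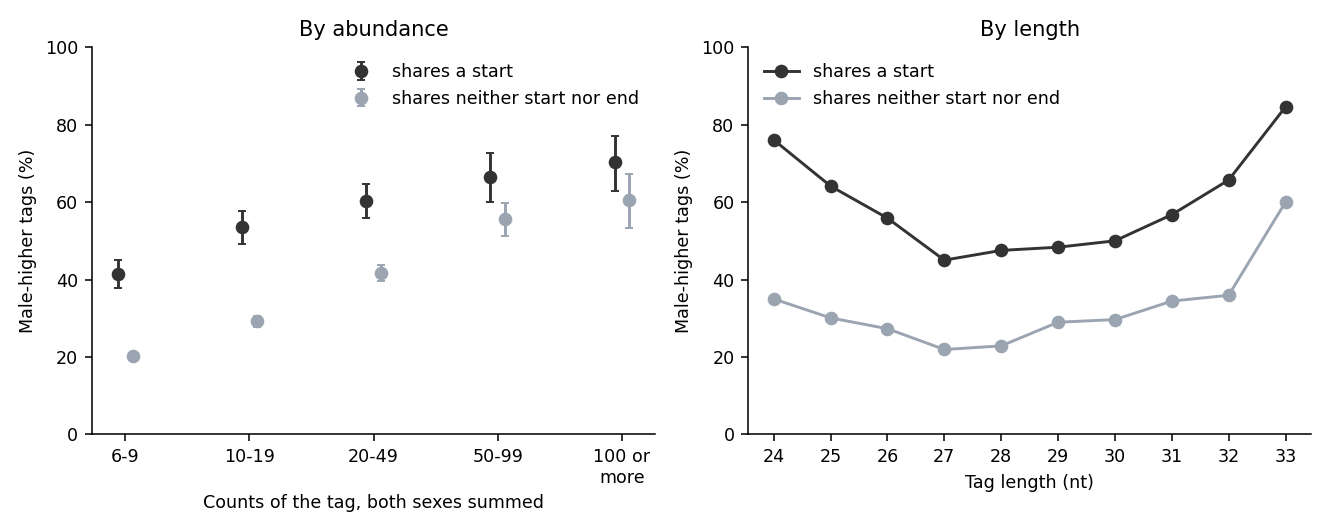
Percentage of male-higher tags among nuclear tags that share a start (dark) and those that share neither start nor end (grey), by the tag's counts summed over both sexes (left, with exact 95% intervals) and by tag length in nt (right). Members lie above the other tags in every range of counts and at every length, and both curves are lowest at 27 nt, with 45.0% and 21.9%.

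Variants of one start mostly leaned to the same sex. In 421 groups all members were male-higher, in 395 all were female-higher, and 129 groups were mixed, so that 86.3% (84.0 to 88.5) had one direction. End groups were close to this, with 85.0% (82.8 to 87.1). In groups of 2 the share was 90.1% (86.6 to 92.9) at a difference of 1 nt, 81.9% (75.8 to 87.0) at 2 nt, 81.0% (71.9 to 88.2) at 3 nt, 74.1% (60.3 to 85.0) at 4 nt and 77.6% (63.4 to 88.2) at 5 nt or more. Counted by pairs of tags, 91.1% (89.6 to 92.4) of 1630 pairs with one start had one direction. Overlapping pairs that shared neither coordinate came near this where the overlap was at least 20 bases, at 87.9% (87.0 to 88.8) of 5485 pairs, and lay lower under 20 bases, at 77.5% (76.2 to 78.7) of 4451. Large stacks give many of these pairs. By pairs, the share for a common start lay above that for close overlaps without one, and its interval did not reach the latter. Large groups weigh more in this count, and by groups the share for a common start was 86.3%, not above the 87.9%. Pairs with one end were at 89.3% (87.7 to 90.7), an interval that overlaps that of the close overlaps.

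The balance of shorter and longer variants did not shift one way between the sexes. In the 776 groups of 2, the shorter variants summed to 15765 female and 21272 male counts and the longer ones to 14696 and 17011. The longer variants thus held 48.2% (47.7 to 48.8) of the female and 44.4% (43.9 to 44.9) of the male counts. The male longer-to-shorter ratio was 0.858 (0.832 to 0.884) times the female one. This sum rested on a single group, that starting at base 25193107 of NW_021839020.1, and without it the value was 1.03, with an interval that included 1. A value weighted within groups (Mantel-Haenszel) was 1.12, and 1.01 without the 10 groups with most counts. Group by group there was no lean. Of 275 groups of 2 with at least 10 counts in each sex, the longer variant held the larger share in males in 133 and in females in 142. End groups had 178 and 148 of 328, with 2 equal.

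Few groups with one direction had an interval that set the length balance of the sexes apart. Of the 275 groups, 202 had one direction. The interval of the male to female ratio of ratios lay above 1 in 12 of them, below 1 in 7 and across 1 in the other 183. Each interval was taken by itself, with no adjustment for their number, so some can exclude 1 by counting error alone. Of the 19 that excluded 1, 13 had a variant listed at 0, which can stand for 1. The 73 groups with opposite directions all had intervals that excluded 1. There the list itself sets a difference of at least 4-fold, since each variant is at least 2-fold apart in its own direction.

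The same variant usually led in both sexes. Among the 381 start groups of any size with at least 10 counts in each sex, the variant with most counts was the same in 312 and differed in 69 (18.1%, 14.4 to 22.4). Where it differed, the male leader was the longer one in 32 groups and the shorter one in 37. The leading variant held a median of 78.0% of a group's female counts and 78.4% of its male counts, so the other variants of a start were mostly minor. It was the shortest listed member in 164 groups in females and 170 in males, and the longest in 160 and 153. In both sexes the most frequent length of the leading variant was 27 nt, in 78 groups in females and 76 in males.

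Mean length differed between the sexes over all members, whereas within groups it differed in both directions and hardly on average. Weighted by counts over all members, the mean length was 27.3 nt in females and 26.9 nt in males, a difference of -0.37 nt (-0.39 to -0.34). Without the group at base 25193107 of NW_021839020.1 it was -0.22 nt. Taken within each of the 381 groups, the male minus female difference had a mean of -0.05 nt with a standard deviation over groups of 0.74 nt and a median of -0.01 nt. The male mean was the longer one in 182 groups and the shorter one in 199.

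**Figure D3:**
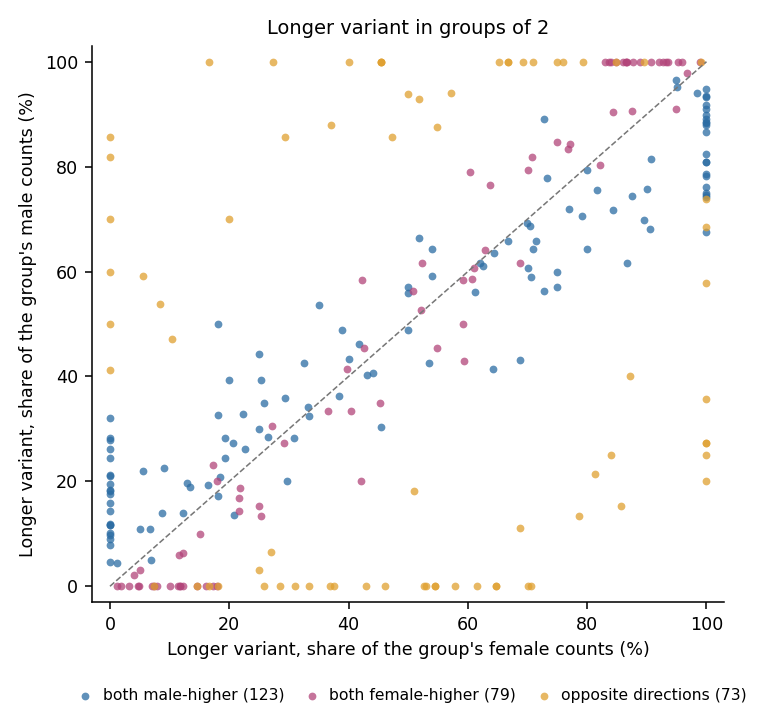
Share of the longer variant in the female counts (horizontal axis, %) and in the male counts (vertical axis, %) of each of 275 groups of 2 with at least 10 counts in each sex, coloured by direction of the tags. Many groups with one direction lie near the dashed line of equal shares, although some lie far from it. For groups with opposite directions the list sets the ratio of ratios and not the gap in shares. Some of these lie near the line, as at NW_021838900.1 202102 with 99.1% and 100%. Points on the edges have a variant listed at 0 in 1 sex.

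The largest ladder of lengths was female. At NW_021837226.1 10 tags of 24 to 33 nt started at base 47873, 1 at every length, all higher in females. From 24 nt upwards they had 127, 622, 2314, 781, 63, 289, 693, 70, 22 and 10 counts in females. In males they had 2, 13, 74, 14, 0, 12, 21, 0, 0 and 0 counts. Females thus had a high point at 26 nt, a low one at 28 nt and a lesser high point at 30 nt, and males, with few counts, had their highest values at the same lengths. In sum the group had 4991 female and 136 male counts and was 28.2-fold (23.8 to 33.7) higher in females. The 26-nt tag, t00001939 (47873 to 47898), held 46.4% of the female and 54.4% of the male counts. The 30-nt tag held 13.9% and 15.4%. For the tags counted in both sexes the fold lay between 18.5 (10.4 to 36.3) at 29 nt and 48.9 at 24 nt, the latter from 2 male counts.

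Of the 19 groups of 5 or more tags, 13 were male-higher throughout, 5 female-higher throughout and 1 mixed. Over all start groups, 44.6% were male-higher and 41.8% female-higher throughout. Several of the large groups overlap and are not independent, such as those at bases 67138177 to 67138180 of NW_021839020.1. At NW_021838798.1 8 tags started at base 2994961, with lengths of 24 to 26 and 28 to 32 nt. In males they had 6, 38, 52, 60, 60, 57, 36 and 10 counts, and in females 0, 0, 8, 9, 7, 7, 6 and 0, a sum 11.2-fold (7.96 to 16.2) higher in males. No single length led in this group, since the tags of 26 to 30 nt in the list held from 16.3% to 18.8% of the male counts each. At NW_021839020.1 7 tags of consecutive lengths from 24 to 30 nt started at base 67138180. They had 18, 76, 72, 235, 62, 262 and 92 counts in males and 5, 18, 24, 64, 5, 97 and 26 in females. Both sexes had high points at 27 and 29 nt and a dip at 28 nt. At 28 nt the share was 2.09% (0.68 to 4.81) of the female and 7.59% (5.87 to 9.63) of the male counts, and that tag was 16.1-fold (6.55 to 51.4) higher in males, whereas the whole group was 4.44-fold (3.84 to 5.15) higher.

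**Figure D4:**
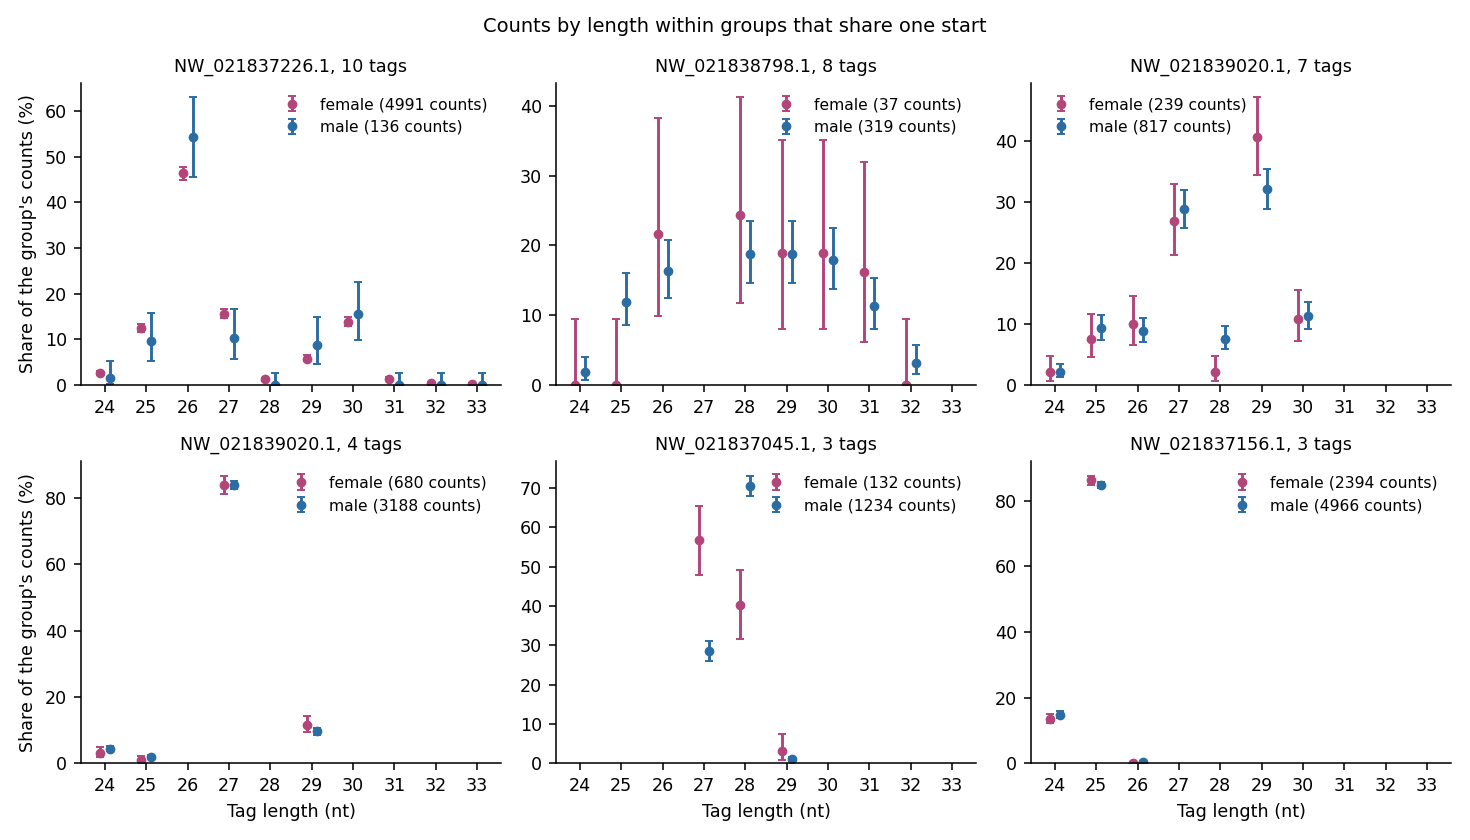
Share of each group's counts (vertical axis, %) by tag length in nt for 6 groups that share one start, in females (pink) and males (blue), with exact 95% intervals for counting error. The profiles of the sexes overlap in most panels, and the 3-tag group of NW_021837045.1 differs, with the 28-nt tag at 40.2% of the female and 70.6% of the male counts.

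The abundant groups differed in whether their variants kept one ratio. On NW_021837156.1 the tags of 24, 25 and 26 nt at base 57217612 had 325, 2064 and 5 counts in females and 734, 4209 and 23 in males. The 24-nt tag was 2.93-fold (2.57 to 3.35) and the 25-nt tag 2.65-fold (2.51 to 2.79) higher in males, with intervals that overlap. At NW_021839130.1 the tags of 26 and 27 nt at base 50841026 had 151 and 302 counts in females and 386 and 742 in males. The male excess was 3.32-fold (2.75 to 4.04) for the shorter tag, against 3.19-fold (2.79 to 3.66) for the longer, and the longer one held 66.7% of the female and 65.8% of the male counts. On the same scaffold the female-higher group at base 50173541 had 117, 1008 and 11 counts in females at 25, 26 and 27 nt, and 37, 386 and 0 in males. Its 25-nt tag was 2.43-fold (1.67 to 3.62) and its 26-nt tag 2.01-fold (1.79 to 2.27) higher in females.

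Near base 35726 of NW_021837045.1 the ratio between the sexes changed with length. Tags of 26 and 27 nt from base 35726 had 1332 and 452 counts in females and 3714 and 2401 in males. The male excess was 3.62-fold (3.40 to 3.86) for the shorter tag, against 6.90-fold (6.24 to 7.65) for the longer, and the male longer-to-shorter ratio was 1.91 (1.69 to 2.15) times the female one. Tags of 27, 28 and 29 nt from base 35725 had 75, 53 and 4 counts in females and 351, 871 and 12 in males. The male excess was 6.08-fold (4.73 to 7.91) at 27 nt and 21.4-fold (16.2 to 28.7) at 28 nt. At 29 nt, with few counts, it was 3.90-fold (1.18 to 16.6), an interval that overlaps that at 27 nt. Females had most counts at 27 nt in this group and males at 28 nt. Seen by their ends, the tags ending on base 35752 had the higher male over female ratio at either start, 6.90 and 21.4, than those ending on base 35751, 3.62 and 6.08.

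At NW_021839020.1 near base 25193107 the shorter variant of a pair leaned more to males. The tags of 24 and 26 nt from base 25193107 had 1379 and 103 counts in females and 5283 and 277 in males. The male excess was 4.98-fold (4.69 to 5.29) for the shorter tag, against 3.49-fold (2.78 to 4.43) for the longer, a ratio of ratios of 0.70 (0.55 to 0.90). At the nearby base 25193104, tags of 24, 25, 27 and 29 nt had 22, 7, 572 and 79 counts in females and 141, 62, 2678 and 307 in males, and the 27-nt tag held 84.1% and 84.0% of the counts. The 24-nt tag of the former and the 27-nt tag of the latter group end on the same base, 25193130, and 7 listed tags of 24 to 33 nt end there. These were the end group with most counts, 1993 in females and 8192 in males, which is a male excess of 5.34-fold (5.09 to 5.61). The next end groups were those ending on base 57217636 of NW_021837156.1, with 2064 female and 4221 male counts, and on base 35751 of NW_021837045.1, with 1407 and 4065.

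In the 2 other abundant groups 1 variant held nearly all counts. The 30-nt tag at base 202102 of NW_021838900.1 had 779 female and 1594 male counts, and its 25-nt partner 7 and 0. The 26-nt tag at base 54510480 of NW_021837156.1 had 377 and 883, beside tags of 24 nt with 3 and 13 counts and of 28 nt with 0 and 8. The partner of the 30-nt tag thus leaned to females and the tag itself to males, although the partner rests on 7 counts.

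Such minor variants were common. In 55 of the 147 groups of 2 with at least 20 counts in each sex, a variant was listed at 0 in 1 sex, which by itself puts the ratio of ratios at its highest or lowest possible value. The ranks of these groups are tied, and the 10 named by rank were ordered by counts. At NW_021837156.1 54491317 the 29-nt tag had 655 female and 228 male counts and the 26-nt tag 7 and 0. At NW_021838599.1 5462611 the 28-nt tag had 494 and 173 and the 29-nt tag 6 and 0. In both cases the interval of the ratio of ratios included 1. Of the other 8, it excluded 1 at NW_021838900.1 202102, at NW_021837998.1 395032 (25 nt with 7 and 0 counts, 27 nt with 60 and 106) and at NW_021838602.1 282409 (25 nt with 88 and 173, 29 nt with 7 and 0). These are groups of opposite direction, for which the list sets the difference.

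Of the 19 groups with one direction whose interval excluded 1, 13 had a variant listed at 0 and 6 had not. These 6, chosen after their values were seen, include those at bases 35726 and 25193107 above. They were picked out of 202 intervals not adjusted for their number, so an interval that comes close to 1 can exclude it by counting error alone. At NW_021837267.1 28292161 the 27-nt tag had 34 female and 57 male counts and the 28-nt tag 2 and 16, a ratio of ratios of 4.77 (1.01 to 44.8). At NW_021838576.1 50028138 the 25-nt tag had 97 and 169 counts and the 33-nt tag 114 and 304, a ratio of ratios of 1.53 (1.08 to 2.16). At NW_021838153.1 168126919 the 26-nt tag had 321 female and 495 male counts and the 29-nt tag 4 and 23, a ratio of ratios of 3.73 (1.26 to 15.0). At NW_021838816.1 72018 the 28-nt tag had 15 and 75 counts and the 29-nt tag 27 and 53, a ratio of ratios of 0.39 (0.18 to 0.85). In that group females had more of the longer and males more of the shorter variant, with both tags male-higher.

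Beside those with a minor variant, no group of opposite direction was among the 10 groups with most counts. Among the 33 groups with a tag of at least 10 counts in each direction, the one with most counts, at base 151624403 of NW_021837045.1, held tags of 25, 26, 27 and 31 nt with 28, 62, 24 and 42 counts in females and 45, 109, 6 and 100 in males. The 27-nt tag was 3.08-fold (1.23 to 9.21) higher in females. The 26-nt tag leaned to males by 2.28-fold (1.66 to 3.17), and the 25-nt tag by 2.09-fold (1.27 to 3.48). At base 39647297 of NW_021837267.1 tags of 24 and 25 nt had 4 and 56 counts in females and 13 and 90 in males, and a 31-nt tag 12 and 2. At base 8953458 of NW_021837045.1 the 26-nt tag had 54 female and 86 male counts and the 28-nt tag 20 and 6, so the longer variant held 27% of the female and 6.52% of the male counts. At base 16917441 of NW_021839130.1 the tags of 24 and 28 nt had 36 and 12 counts in females and 64 and 2 in males. At base 54286508 of NW_021837156.1, tags of 26 and 27 nt had 25 and 26 counts in females and 45 and 10 in males.

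Opposite directions were even in number except at a difference of 4 nt. Among groups of 2, the shorter tag was male-higher and the longer female-higher in 60, and the reverse held in 57. At a difference of 4 nt the numbers were 13 and 1. In the 10 groups of one direction with that difference and at least 10 counts in each sex, the longer variant held the larger share in females in 6 and in males in 4. End groups with a difference of 4 nt had 6 and 5. The 13 groups lay on 9 scaffolds and 8 of them paired a tag of 25 nt with one of 29 nt. On NW_021837045.1 such pairs began at bases 8739119, 135350116 and 135371237. At 135350116 the 25-nt tag had 5 female and 18 male counts and the 29-nt tag 34 and 12. At 135371237 the 25-nt tag had 4 and 15 and the 29-nt tag 21 and 5. This length difference was picked after the values were seen, out of 5 classes of difference, and the counts are low.

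Whole groups were also listed in 1 sex alone, 168 (17.8%) in females and 67 (7.09%) in males. End groups were close to this, with 17.9% and 7.53%. Of all listed tags, 55.7% and 17% were listed in females and males alone. These are shares of single tags, whereas a group needs every tag at 0 in the other sex. The female ones with most counts were a pair of 27 and 28 nt at base 12619927 of NW_021838687.1 with 22 and 343 counts, a pair of 28 and 29 nt at base 43568115 of NW_021837045.1 with 60 and 114, and a pair of 27 and 29 nt at base 41694820 of NW_021837600.1 with 57 and 8. The male ones were tags of 28, 30 and 31 nt at base 276057 of NW_021838602.1 with 25, 66 and 8 counts, tags of 26, 27 and 29 nt at base 463822 of NW_021838542.1 with 14, 20 and 18, and a pair of 28 and 29 nt at base 8301663 of NW_021838443.1 with 41 and 8. Each of these tags was listed at 0 in the other sex.

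Members lay in tag-rich regions, defined as tags at most 10 kb apart, more often than nuclear tags as a whole. A member always has another listed tag at its own start, and both count towards region size. Membership and region size are thus not independent. Regions of 100 or more tags held 54.2% of the members and 46.2% of the tags that shared an end, against 26.3% of all nuclear tags. By groups these were 502 of the 945 start groups and 488 of the 1063 end groups. The regions given next were picked for holding many start groups. At NW_021838798.1 2994086 to 3000357, 127 of 167 tags (76.0%) shared a start, and all 127 were male-higher, as were 166 of the 167. At NW_021837267.1 27236171 to 27243916 it was 131 of 268 (48.9%), with 130 male-higher, as were 265 of the 268. In the female-leaning region at NW_021839130.1 50168091 to 50276698, 104 of 369 tags (28.2%) shared a start in 46 groups, and 42 of these groups were all female-higher. Of all 369 tags of that region, only 40 (10.8%) were male-higher. At NW_021837489.1 2319772 to 2363743, which held tags of both directions, 16 of 39 groups were mixed. The share of mixed groups over all was 13.7%.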

How the data were processed

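Small RNAs of whole bodies were sequenced in 3 libraries titled Female and 3 titled Male. The submitters' processing notes name the trimmer Trimmomatic 0.30. Aligner, counter, genome build, list filter and how libraries were merged are not named in these sources. Raw whole-number counts were deposited by the authors in 1 column per sex. TPM, as the file headers call it, was in the deposited columns the count divided by 1 total per column, with no length term, and 0.01 for a count of 0. The deposited log2 values were of male over female TPM and at least 1.00 in size. Positions are as deposited, and length is end minus start plus 1.

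Groups were built from sequence name and start, or end, in pandas 2.3.3. Intervals (scipy 1.17.1) were exact Clopper-Pearson for shares and conditional exact for ratios of counts and ratios of ratios; those of mean lengths were normal. The intervals of ratios of ratios, the Mantel-Haenszel value and the search for groups were tested on simulated data, and the other intervals were not. The simulation left out the 2-fold selection of the list. With 1 column per sex no test was possible. Alternatives were the totals of listed tags, TMM and RLE factors (edgeR 4.0.16), a count minimum, lengths, spans and sets of groups.

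Members, lists and rules were chosen with earlier results of these data known. Groups named were the 10 with most counts, the 3 with most tags, the 5 highest and 5 lowest ratios of ratios from 20 counts in each sex on, the 5 most counted of opposite direction, the 3 most counted in 1 sex alone, and the 3 most counted end groups.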

Additional observations from a re-analysis of the deposited data

How the results depend on the processing

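Settings changed one at a time moved several values. With tags of at least 10 counts there were 462 start and 533 end groups, 64.5% male-higher members and 92.9% groups of one direction. Groups spanning 1 nt numbered 374 and 451, with 49.3% male-higher members, 90.1% of one direction, a ratio of ratios of 0.960, a differing leading variant in 14.2% and a mean length difference of -0.69 nt. With 1 group per locus the male-higher share was 47.3%, the ratio of ratios 0.816 and the length difference -0.48 nt. Without regions of 100 or more tags there were 443 and 575 groups, and these values were 45.0%, 0.705 and -0.52 nt. Without the 10 groups with most counts the ratio of ratios was 0.996 and the length difference -0.24 nt, and with tags of 24 to 30 nt the ratio of ratios was 0.894. Alternatives added after seeing the data left out single groups. Without that at NW_021839020.1 25193107 the ratio of ratios was 1.03 and the length difference -0.22 nt, and without that at NW_021837226.1 47873 the length difference was -0.42 nt. RLE factors gave 51.5% male-higher members, and the other scalings turned no member. The share of groups whose longer variant was favoured in males stayed within its interval under all 7 alternatives. The removals of single groups show only how far a value rested on each of them, and the cause of these changes was not tested. No paired analysis was possible because the table gives 1 count column per sex, and leaving out single libraries was not run for the same reason. Depth limits the minor variants, many of which have under 10 counts.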
